A study of Mus musculus with 56 samples.

Results

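The genes described here are the 135 zinc finger genes named Zfp with a number that were detected in mouse blood, of 329 genes with such a name on the array. A gene was taken where the GeneName column held Zfp followed by digits alone, leaving out Zfp36, which encodes a zinc finger of another type, and where its brightest probe was well above background on at least 42 of 56 arrays. The members were thus chosen by measured values, the detection flags of all groups, and 12544 of 30199 named genes passed the same rule. At its edge stood Zfp566, Zfp64 and Zfp944, detected on 42 arrays, and just outside it Zfp110 and Zfp51, detected on 41. Of the 194 Zfp genes outside the rule, 34 were well above background on no array. Another 48 reached the share of arrays that the rule asks, 42 of 56, among control mice but not among 90Sr mice. These are missing from what follows.

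The arrays held RNA from the whole blood of C57BL/6 mice, 10 to 12 weeks old when received and held in quarantine for 14 days. The 28 exposed mice had 200 kBq of 90Sr, a bone-seeking beta emitter, injected as a chloride solution into the tail vein with a tracer amount of a gamma-emitting strontium isotope, and were compared with 28 control mice given the saline vehicle. Blood was drawn from the heart on day 4, 7, 9, 25 or 30, from 4 control and 4 90Sr mice at day 4 and from 6 and 6 mice at each later day, with 1 array per mouse. All exposed mice received the same activity, so the time since injection and the dose accrued by then rose together and cannot be told apart. Levels below are log2 of the processed signal of a spot minus the median of its array, so that 0 is the array median, and changes are 90Sr minus control within a day.

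Most genes with the Zfp prefix encode C2H2 zinc finger proteins, in which pairs of cysteines and histidines fold a short loop around a zinc ion and a row of such fingers reads a stretch of DNA. Many also carry a KRAB domain, which binds the corepressor Trim28 and through it the histone methyltransferase Setdb1, heterochromatin proteins and histone deacetylases, and which silences transposable elements and neighbouring genes. The family grew by repeated duplication, so its genes lie in clusters and resemble one another closely. The prefix is a naming convention, and names have changed since the array was designed: RefSeq lists Zfp259 as Zpr1, a zinc finger protein of another kind, and Zfp191 as Zfp24.

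Probes of 60 bases measured these genes, and 6 of the 135 probes used held a match to the codons of the linker that joins neighbouring fingers, a stretch that recurs in many genes of the family. They are printed to show which part of a zinc finger message such a probe reads. Each is written 5′ to 3′ with the match to ACNGGNGANAANCCN, searched on both strands, in capitals, which spells codons for threonine, glycine, glutamate or aspartate, lysine or asparagine, and proline. In Zfp931 the bases after the match, tag, read as a stop codon in that frame, so no further finger follows there. The search was for letters, and the reading frame was not checked.
Zfp386: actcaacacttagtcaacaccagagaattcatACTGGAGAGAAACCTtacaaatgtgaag
Zfp442: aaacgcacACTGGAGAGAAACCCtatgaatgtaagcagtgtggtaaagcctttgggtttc
Zfp72: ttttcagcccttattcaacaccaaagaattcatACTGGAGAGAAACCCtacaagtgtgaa
Zfp936: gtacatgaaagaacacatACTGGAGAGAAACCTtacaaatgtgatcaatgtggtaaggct
Zfp689: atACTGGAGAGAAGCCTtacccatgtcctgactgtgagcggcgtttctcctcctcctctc
Zfp931: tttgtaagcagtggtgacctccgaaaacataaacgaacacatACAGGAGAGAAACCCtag
By the array annotation on mm9 these stretches lie at chr12:117298639-117298698 (Zfp386), chr2:150234210-150234269 (Zfp442), chr13:74509332-74509391 (Zfp72), chr7:50445732-50445791 (Zfp936), chr7:134587980-134588039 (Zfp689) and chr2:177802400-177802459 (Zfp931). The motif was in 4.44% of the member probes, in 2.69% of the 520 probes of all Zfp-numbered genes and in 0.0964% of all 39429 non-control probes. The first 4 probes had negative changes on every day, and Zfp442 was called lower on 4 of the 5 days with arrays scaled to their medians, and on none under all 4 scalings tried. The change of Zfp689 was 0.19 to 0.95 on the log2 scale with no call, and that of Zfp931 went from -0.63 at day 9 to 1.06 at day 30, also with no call. Probes over the same kind of stretch thus had no common direction. Binding of related messages to these probes was not tested.

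A gene was called, by the threshold of the study's methods, where limma gave an unadjusted p below 0.001 and the groups differed by 2-fold or more. With arrays scaled to their medians, day 4 had 41 members called lower (30.4%, against 19.9% of all genes tested) and day 7 had 26 (19.3% against 12.3%). On day 9 there were 37 (27.4% against 15.1%), on day 25 there were 48 (35.6% against 22.3%) and on day 30 again 37 (27.4% against 17.5%). Called higher were 3 members on day 4 (background 1.39%), 1 on day 7 (2.06%) and 0 on day 9 (3.4%). Day 25 had 1 (4.88%) and day 30 had 17 (18.6%). For the day 9 count of 0, limma gave 9 members higher at an adjusted p under 0.05, where the background was 14.1%. On day 4 every slide carried a single group, so slide and group cannot be told apart there, while days 7 to 30 each had 1 slide with 2 arrays of either group. Within those slides all members called lower (26, 37, 48 and 37 in day order) had a negative difference. These arrays were among those that made the calls, so the shared sign is partly set by that. With slide as a fixed block, which rests on these 4 arrays a day, 30, 15, 1 and 4 members were called lower and 0 higher. Of all genes tested, that fit called 14.5%, 5.63%, 0.423% and 1.85% lower and 0.0717% to 1.08% higher. With slide as a random block 27, 35, 42 and 37 members were called lower, against 12.6%, 14.8%, 18% and 17.4% of all genes. Over the time course 63 members were called lower on at least 1 day, 18 higher on at least 1 day, none in both directions, and 54 on no day, where 49.1% of all genes tested were called on at least 1 day. No member was called higher on all 5 days, as 0.0319% of all genes were.

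At an adjusted p under 0.05, 71 members were lower on day 4 (background 39.3%), 71 on day 7 (39.3%), 64 on day 9 (32.1%), 77 on day 25 (44.7%) and 67 on day 30 (32.7%). Higher were 21 (19.3%), 29 (25.5%), 9 (14.1%), 27 (23.7%) and 40 (38.5%) in the same order. Every 90Sr mouse lay below every control for 68, 57, 48, 59 and 37 members (background 37.1%, 28.3%, 22%, 33.3% and 15%) and above every control for 13, 13, 4, 6 and 17 (17.3%, 10.1%, 5.01%, 6.87% and 19.3%).

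The median log2 change of the members over the 5 days in order was -0.61, -0.49, -0.46, -0.62 and -0.49. Over all 12544 genes tested it was -0.11, -0.10, -0.16, -0.26 and 0.12, which placed the members lower by 0.50, 0.39, 0.30, 0.37 and 0.61. Changes ran from -2.57 for Zfp296 to 2.23 for Zfp92, both at day 30, and Zfp92 was not called (adjusted p = 0.00259). Detection split the members: the 83 detected on all 56 arrays had day medians between -0.26 and -0.08, and the 52 detected on 42 to 55 arrays between -1.08 and -0.89. Detection in 90Sr mice depends on the level there, so this split is not independent of the change. All genes tested, split in the same manner, had medians of -0.16 to 0.27 for those detected throughout and -0.76 to -0.50 for the others. With arrays scaled to their medians, 15, 7, 14, 22 and 15 of the 83 members were called lower in day order. Of the 9292 genes detected throughout, 15%, 8.23%, 10.5%, 16.9% and 13% were. Of the 52 members, 26, 19, 23, 26 and 22 were, against 33.8%, 24%, 28.1%, 37.9% and 30.2% of 3252 such genes. The less detected genes made up a larger share of the members than of all genes tested.

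**Figure D1:**
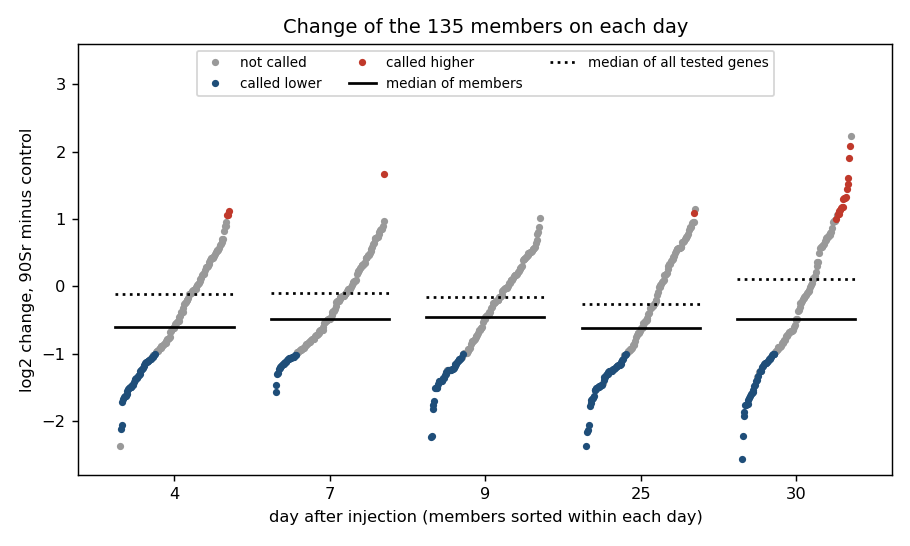
Change of each of the 135 members on each day, as log2 of the level in 90Sr minus control mice, sorted within the day; filled colors mark members called lower or higher, the solid line is the median of the members and the dotted line that of all tested genes. The solid line lies below the dotted line on all 5 days, by 0.30 to 0.61.

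The scale set how many members were called. The median spot of an array was dim, and between control and 90Sr arrays the 75th percentile differed more than the median, by -1.13 against -0.66 at day 4 and by -0.78 against -0.59 at day 30, on the log2 scale. Scaled to the 75th percentile, the median change of all tested genes moved up to between 0.23 and 0.36, and 12, 2, 13, 14 and 23 members were called lower over the 5 days in order, with 15, 12, 4, 25 and 21 called higher. Of all genes tested, 6.24%, 2.82%, 4.4%, 5.6% and 12.7% were then called lower and 12%, 9.78%, 11.3%, 19.6% and 24.3% higher. The share of member calls that were lower, 93.2%, 96.3%, 100%, 98% and 68.5% with the array median, was 44.4%, 14.3%, 76.5%, 35.9% and 52.3% with the 75th percentile. The calls over all genes moved toward higher as well. The position of the members against all tested genes is the same under any scaling by a constant for each array. Under the array median, the 75th percentile, the median of spots detected on all arrays and quantile normalization alike, 12, 2, 12, 11 and 23 members were called lower at the 5 days in order (background 6.14%, 2.75%, 4.22%, 4.99% and 12.5%), and 3, 1, 0, 1 and 12 higher (background 1.36%, 2.02%, 2.3%, 4.82% and 14%). At an adjusted p under 0.05, all 4 scalings had 52, 53, 47, 55 and 60 members lower (background 25.8%, 26.6%, 21.3%, 28.5% and 29%) and 20, 28, 8, 26 and 34 higher (17.1%, 24.3%, 12.5%, 23% and 32.9%). By the stricter threshold 32 members were lower on at least 1 day under all 4 (15.3% of all genes) and 15 higher (17.7%). With the adjusted p, 34 members were lower on all 5 days under all 4, which is 25.2% of the members against 16% of all genes tested. With normexp background correction in place of the processed signal, no member was called lower on any day. Of all genes tested, 0%, 0.0797%, 0.678%, 0% and 0% were then called lower, in day order. At day 4 the members stood 0.24 above the median of all tested genes with this correction (-0.60 against -0.84).

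**Figure D2:**
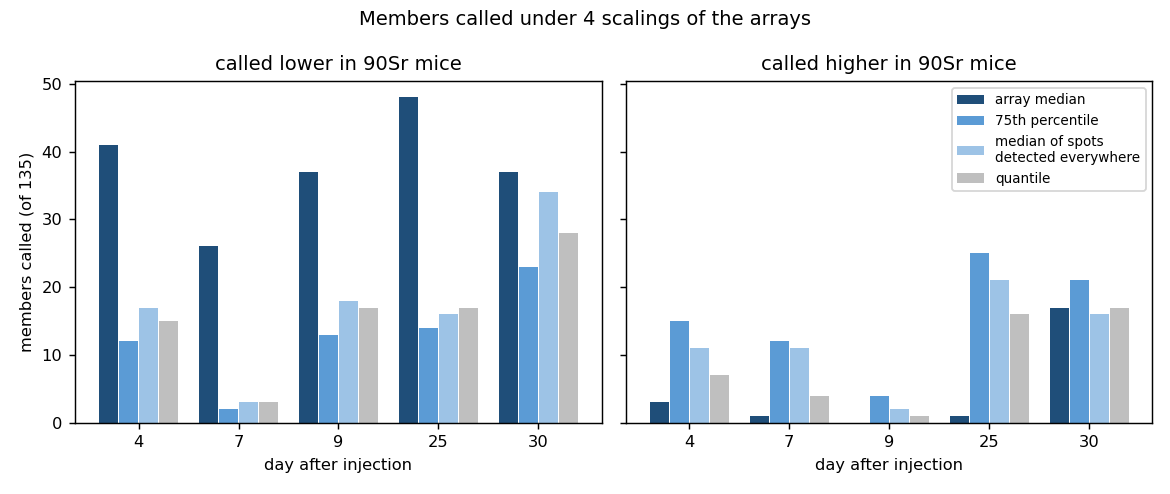
Number of the 135 members called lower (left) and higher (right) in 90Sr mice at each day, with bars for 4 ways of scaling the arrays. At day 7 the count called lower went from 26 with the array median to 2 or 3 with the other scalings, and at day 30 it was between 23 and 37.

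Blood is a mixture of cells, and marker genes of several cell types moved on the same arrays. Of 14 tested B cell markers, 12 were called lower at days 4, 7, 25 and 30 and 11 at day 9, with median changes between -2.37 and -1.69. The log2 of their summed level was 9.86 to 11.02 in control mice and 7.47 to 9.71 in 90Sr mice, with no overlap, and each of the 16 B cell markers on the array was well above background on at least 31 arrays. Of 16 T cell markers 0 to 3 were called lower on a day and 1 higher at day 30, with summed levels of 9.87 to 11.05 in controls and 9.22 to 11.69 after 90Sr. By limma at an adjusted p under 0.05, 8, 10, 7, 9 and 9 were lower in day order and 0, 2, 0, 1 and 3 higher. Of all genes tested, 39.3%, 39.3%, 32.1%, 44.7% and 32.7% were lower and 19.3%, 25.5%, 14.1%, 23.7% and 38.5% higher. The median changes of the T cell markers were -0.64 to -0.43. Of 12 erythroid markers 9 were called higher at day 9 and 8 at day 30. Over all days their summed levels were 14.32 to 15.54 in controls and 15.13 to 16.23 after 90Sr. Within each day every 90Sr mouse was above every control, at day 25 with a lowest 90Sr sum of 15.13 and a highest control sum of 15.11. The remaining lists held 0 called of 9 natural killer cell markers on every day (by limma, 2 to 6 lower and 0 or 1 higher at an adjusted p under 0.05), 0 to 2 lower of 10 neutrophil markers, 2 or 3 lower of 6 monocyte markers and 2 higher of 12 platelet markers at day 30. At this adjusted p, 6, 2, 2, 7 and 0 neutrophil markers were lower in day order and 0, 0, 0, 0 and 1 higher. For monocyte markers these were 3, 4, 4, 5 and 3 lower and 0, 1, 0, 0 and 0 higher. Of the platelet markers 0 were lower on any day, and 3, 1, 1, 0 and 11 were higher. Median changes were -0.91 to -0.29 for natural killer cells, -0.88 to -0.20 for neutrophils and -1.14 to -0.49 for monocytes. Over all days the summed levels of these remaining lists overlapped between the groups, at 8.20 to 9.79 and 7.54 to 9.32 for natural killer cells, 11.48 to 12.87 and 10.91 to 13.03 for neutrophils, 8.91 to 10.31 and 8.18 to 10.49 for monocytes and 13.62 to 14.83 and 13.43 to 15 for platelets, in control and 90Sr mice. Within day 4 there was no overlap for neutrophils (12.10 to 12.87 and 11.33 to 11.61) and platelets (14.19 to 14.50 and 14.53 to 14.74). On the later days both lists overlapped, as natural killer cells and monocytes did on every day. The part of these shifts in the changes of the Zfp genes was not tested, and in bulk blood fewer cells of a type and less RNA per cell cannot be told apart. The arrays of 90Sr mice also had fewer detected spots, 14389 to 22524 against 17809 to 24698. Of the 56 arrays 1 correlated better with the opposite group of its day, replicate 2 of the day 25 90Sr mice (mean r 0.978 against 0.973 with its own group), and without it 55 members were called lower and 3 higher at day 25.

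Among members with a described role, Zfp318, which mature B cells need to make IgD, had the largest changes at days 4, 7, 9 and 25. At day 4 its levels were 2.98, 2.78, 3.46 and 2.92 in control mice and 1.26, 0.53, 1.29 and 0.59 in 90Sr mice. The lowest, median and highest control levels on days 7, 9 and 25 were 2.86, 3.06 and 3.36, then 2.28, 2.59 and 2.87, then 2.53, 3.22 and 3.49, against 0.15, 1.74 and 2.12, -0.75, 0.39 and 1.34, and -0.82, 0.75 and 2.23 after 90Sr. On each of these days every 90Sr mouse was below every control. Its changes were -2.12 ± 0.22 (SE), -1.57 ± 0.26, -2.24 ± 0.31 and -2.38 ± 0.36 in day order (adjusted p 4.49e-05 to 0.000142), and it was called under all 4 scalings on these days.

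At day 30 the control levels of Zfp318 were 2.29 to 3.11, and 5 of the 90Sr mice lay between 0.24 and 2.41, but replicate 6 read 7.19. The spot of that reading is 1 of 3 among the 7560 member values that the scanner software marked as non-uniform, the others being Zfp943 in replicate 2 of the day 4 controls (10.6) and Zfp663 in replicate 4 of the day 25 90Sr mice (9.83). With the reading included the change was -0.89 ± 0.90 (SE, adjusted p = 0.383), and without it -1.94 ± 0.33 (adjusted p = 0.000182). The other 3 probes of Zfp318, of which 1 is annotated to the same transcript and 2 to another, changed by -2.21, -2.21 and -3.01 at day 30, and replicate 6 was below every control mouse on each of them, at -0.87, 0.63 and -1.06. The changes of all 4 probes were negative on all 5 days, from -3.01 to -0.89. The array annotation places the probe used at chr17:46551614-46551673 on mm9.

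**Figure D3:**
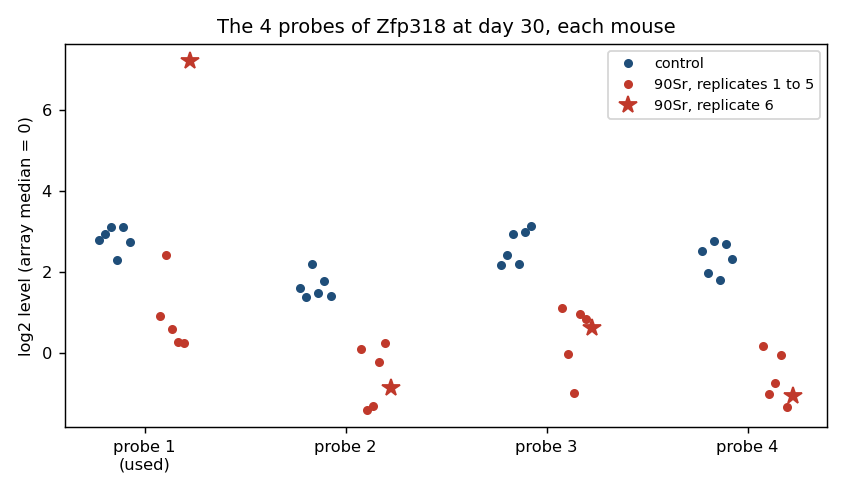
Level of the 4 Zfp318 probes at day 30 in each mouse, as log2 with the array median at 0; stars mark replicate 6 of the 90Sr mice. Its star stands at 7.19 for the probe used and among or below the other 90Sr mice for the other 3 probes.

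Zfp622, a factor of cytoplasmic ribosome subunit maturation, had control medians between 6.39 and 6.90. In 90Sr mice its medians were 5.25 to 5.98, and no 90Sr mouse reached a control mouse on any day. It was called lower at days 4, 9, 25 and 30, with changes of -1.33 ± 0.17, -1.10 ± 0.20, -1.24 ± 0.21 and -1.25 ± 0.19, and at day 7 it changed by -0.89 ± 0.16 (adjusted p = 0.00027). Of these calls, that of day 30 was made under all 4 scalings. Zfp148, which binds GC-rich promoters, was called lower at days 4, 25 and 30 (-1.11 ± 0.19, -1.24 ± 0.20 and -1.33 ± 0.16), at day 30 under all 4 scalings. Its highest 90Sr level at day 30, 3.28, was below its lowest control level of 3.98. Zfp746, also called PARIS and a repressor of the mitochondrial coactivator gene Ppargc1a, was called lower at days 7, 9 and 30 (-1.12 ± 0.14, -1.08 ± 0.20 and -1.13 ± 0.23), though none of these calls was made under all 4 scalings.

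Zfp217, a subunit of histone-modifying corepressor complexes, depended on the probe. The brightest probe was called lower at days 4, 7, 9 and 25 with changes of -1.68, -1.05, -1.23 and -1.67 (at day 4 under all 4 scalings), and a second probe to the same accession, detected on all 56 arrays, changed by 0.24, 0.34, 1.08 and 0.23. Of 22 members with a second detected probe, both probes had the same sign on all 5 days for 6. On days with a call the signs differed for Zfp217, Zfp457, Zfp644 and Zfp936. Zfp281, a relative of Zfp148, and Zfp207, which binds spindle microtubules, were not called on any day, with changes of -0.81 to -0.18 and -0.53 to -0.13. The second detected probe of Zfp207 had the opposite sign on all 5 days. Of the role genes outside the rule, Zfp91 was well above background on 0 arrays, Zfp521 on 1, Zfp326 on 8, Zfp335 on 11, Zfp143 on 25, Zfp410 on 32 and Zfp809 on 34, and no probe carried the name Zfp683.

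With arrays scaled to their medians, 15 members were lower at all 5 days, or 11.1% against 7.74% of all genes tested. This count was 0 with the 75th percentile, 0 with the median of spots detected on all arrays, 1 with quantile normalization and 0 with normexp, and no member was called lower on more than 4 days under all 4 scalings. They were Zfp46, Zfp64, Zfp260, Zfp263, Zfp277, Zfp296, Zfp513, Zfp639, Zfp688, Zfp710, Zfp747, Zfp764, Zfp777, Zfp869 and Zfp954. Without replicate 6 of the day 7 90Sr mice, 14 members were called lower at day 7 and 7 at all 5 days. Every 90Sr mouse lay below every control on all 5 days for 19 members, 14.1% against 8.86%.

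Zfp296, a pluripotency-associated factor, showed the largest mean change of these. Its day 4 levels were 2.56, 2.57, 2.67 and 2.18 in control mice and 1.06, 0.56, 1.11 and 0.36 in 90Sr mice. At day 30 the lowest, median and highest levels were 1.90, 2.70 and 3.16 in controls and -0.73, -0.02 and 0.89 after 90Sr. The groups did not overlap on any day. In day order the changes were -1.72 ± 0.19, -1.46 ± 0.18, -1.52 ± 0.27, -2.17 ± 0.34 and -2.57 ± 0.29 (adjusted p 1.84e-05 to 0.000227). Its probe was detected on 43 arrays, and in 2 of the 6 90Sr mice at day 30.

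Zfp764 and Zfp688 lie next to each other on chromosome 7. Zfp764 read 3.33, 3.25, 3.66 and 2.97 in day 4 control mice and 2.10, 1.90, 1.65 and 1.60 in 90Sr mice, and at day 30 its highest 90Sr level, 2.01, was below its lowest control level, 2.75. Its changes were between -1.78 and -1.20, and it was called under all 4 scalings at days 4, 9, 25 and 30. Zfp688 read 3.04, 2.96, 3.42 and 2.85 against 1.67, 1.57, 1.39 and 1.45 at day 4 and changed by -1.75 to -1.16 over the 5 days. Neither gene had a day on which the groups overlapped.

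Zfp513, known from retinal development, read 4.26, 4.16, 4.46 and 4.10 in day 4 controls and 2.91, 2.60, 2.83 and 2.54 in 90Sr mice. It was detected on all 56 arrays and changed by -1.63 to -1.08, with no overlap on any day. Zfp710 had control medians of 5.06 to 5.52 and 90Sr medians of 3.23 to 3.97. It changed by -2.06 ± 0.18 at day 4 and by -1.74 to -1.30 later, and at day 30 its groups overlapped, the lowest control being 4.16 and the highest 90Sr mouse 4.25. Zfp263, Zfp639 and Zfp64 changed by -1.63 to -1.18, -1.48 to -1.13 and -1.68 to -1.15. Under all 4 scalings Zfp639 was called at day 30, Zfp263 at days 4 and 30, Zfp710 at days 4, 9 and 30, Zfp688 at days 4, 25 and 30, Zfp513 and Zfp64 on every day but day 7, and Zfp296 on every day but day 9. For Zfp64 detection was at the edge of the rule, and 1 of 6 90Sr mice at day 9 was well above background.

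**Figure D4:**
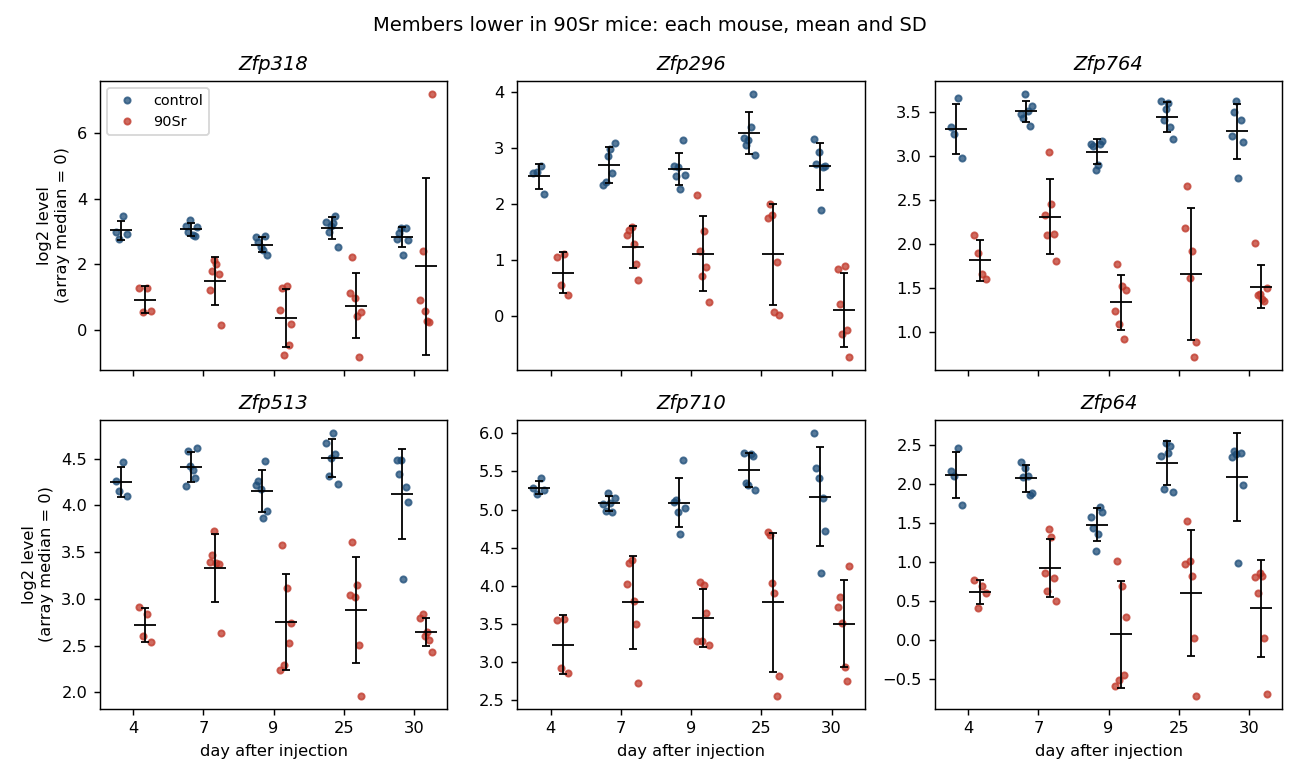
Level of 6 members in each mouse by day, as log2 with the array median at 0, with control and 90Sr mice in 2 colors and the mean with its SD as black bars. Zfp296, Zfp764, Zfp513 and Zfp64 have no 90Sr mouse above a control mouse on any day, and the single high point of Zfp318 at day 30 is the spot at 7.19.

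Of the genes named for 1 day, Zfp566 had its largest change at day 9. Its control levels were 1.39, 1.78 and 2.02 (lowest, median and highest) and its 90Sr levels -0.97, -0.54 and 0.44. No 90Sr mouse was well above background there, so the change is a bound, at least 2.096-fold lower (adjusted p = 3.97e-06 for the measured values). Zfp777 changed by -2.22 ± 0.32 at day 30, when its control mice read 2.12 to 3.55 and its 90Sr mice -0.38 to 1.46. It was called lower on the other 4 days as well, by 1.02 to 2.06, with the calls of days 9, 25 and 30 made under all 4 scalings, and was detected in 3 of the 6 90Sr mice at day 30.

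With arrays scaled to their medians, 17 of the members were called higher at day 30, a share of 12.6% that is below the 18.6% of all genes tested, and with the 75th percentile the most were called higher at day 25. Under all 4 scalings Zfp940 and Zfp112 were called higher at days 4 and 30, Zfp57 and Zfp189 at day 30, Zfp740 at day 4 and Zfp703 at day 25. With the array median, Zfp940 lost its day 4 call without control replicate 3 or 4, or without any 1 of the 90Sr mice. The unadjusted p from limma was then 0.00205 to 0.00307. Zfp112 lost its day 4 call without control replicate 3 (change 0.95), and Zfp703 its day 25 call without 90Sr replicate 3 (0.95). Zfp940 had control levels of 5.34, 5.32, 4.36 and 4.47 and 90Sr levels of 5.98, 5.81, 5.95 and 6.00 at day 4. At day 30 the lowest, median and highest levels were 3.85, 4.67 and 5.64 in controls and 5.72, 6.88 and 7.49 after 90Sr. No 90Sr mouse was below a control on either day, and the changes were 1.06 ± 0.23 and 2.09 ± 0.32 (adjusted p = 0.00263 and 8.28e-05). At day 9 the groups overlapped, with controls at 5.43, 6.51 and 6.65, 90Sr mice at 5.60, 6.04 and 6.54, and a change of -0.20 ± 0.25. With normexp background correction the day 4 change of Zfp940 was -0.29 and that of Zfp740, described next, was -0.06.

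Zfp740 gave the same order, with 1.63, 1.47, 1.07 and 1.30 in day 4 controls, 2.33, 2.42, 2.47 and 2.72 in 90Sr mice, and a change of 1.12 ± 0.15 (adjusted p = 0.000145). Later changes were 0.96, -0.21, 0.88 and 1.17 on days 7 to 30, and its control median stood at 2.76 on day 9 and between 1.34 and 1.68 on the other days. Zfp112 read 0.75, 0.64, 0.16 and 0.47 in day 4 controls and 1.52, 1.5, 1.54 and 1.70 in 90Sr mice. Its changes were 1.06 ± 0.14 at day 4 and 1.45 ± 0.26 at day 30, with no overlap on these days, and 0.15 at day 9, where the groups overlapped. Zfp189 was called higher at day 30 (1.61 ± 0.31), where controls read 0.84 to 1.89 and 90Sr mice 2.02 to 3.83.

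Zfp57, a KRAB protein that preserves DNA methylation at imprinted genes, was called higher at day 30 by 1.31 ± 0.22. Its controls then read 2.86, 3.11 and 3.51 and its 90Sr mice 3.49, 4.58 and 4.87, so that 1 90Sr mouse overlapped with the controls. At day 9 its change was -0.53 ± 0.31, with control levels from 3.21 to 5.10. Zfp703, a corepressor amplified in some breast cancers, was called higher at days 25 and 30. Its controls at day 25 read 7.03, 7.51 and 7.68 and its 90Sr mice 7.91, 8.48 and 9.16, without overlap, and the changes were 1.08 ± 0.21 and 1.14 ± 0.24 (adjusted p = 0.0004 and 0.000794).

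**Figure D5:**
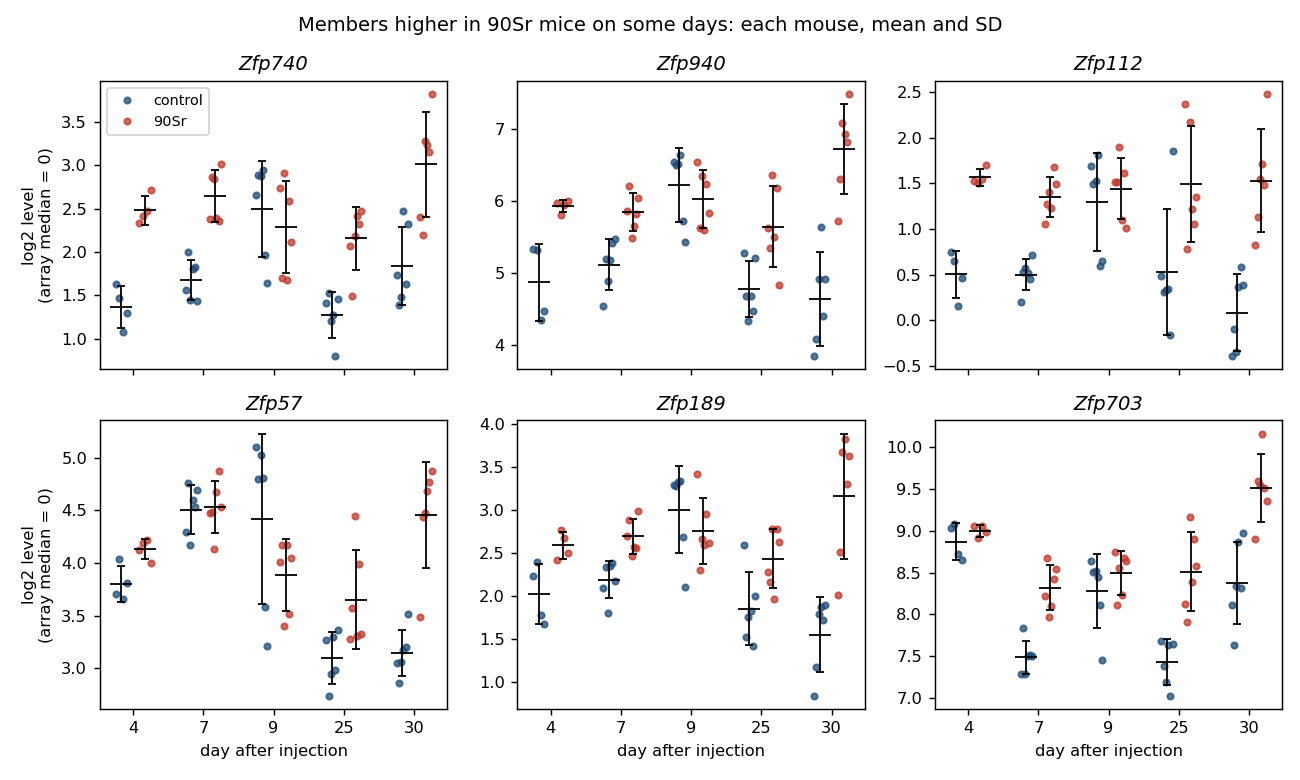
Level of 6 members called higher on some days, in each mouse, as log2 with the array median at 0, with control and 90Sr mice in 2 colors and mean and SD in black. At day 9 both groups overlap for all 6 genes, and the control medians of Zfp740, Zfp940, Zfp57 and Zfp189 are higher at day 9 than on the other days.

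The effect of 90Sr differed between days, by limma's F test over the 5 differences at an adjusted p under 0.05, for 35 members (25.9% against 29% of all genes tested). The smallest adjusted p were those of Zfp940 (0.000353), Zfp57 (0.00049) and Zfp189 (0.000982), each with its highest change at day 30 and a negative one at day 9. Levels in control mice differed between days for 84 members (62.2% against 67.5%), and the control means of 22 spanned at least 2-fold. The arrays of each day were on slides and scan dates of their own. A difference between days thus cannot be told apart from a difference between slides or scan dates. With slide as a random block the effect differed for 6 members, and control days differed for 48. With slide as a fixed block, over days 7 to 30, the effect differed for 0 members. Among the 15 members lower at all 5 days the smallest adjusted p for a difference between days was 0.108, for Zfp296.

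Position in the genome grouped some members. By the array annotation on mm9, 32 of 134 members with a position were on chromosome 7, and 48 members fell into 10 runs of at least 3 members with gaps of at most 1 Mb. The largest run held 8 members between chr7:134381189 and 135009604: Zfp747, Zfp764 and Zfp688 were lower at all 5 days, Zfp553, Zfp668 and Zfp768 on 4, 3 and 1 days, and Zfp771 and Zfp689 on none. A run of 3 on chromosome 2, with Zfp120, Zfp937 and Zfp442, had each gene lower on at least 1 day. At 24892175 to 25867371 on chromosome 7, Zfp112 and Zfp574 were called higher at day 30 by 1.45 and 1.31, and Zfp180 changed by 0.77 without a call.

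A second run on chromosome 7, at 30614327 to 30946346 on mm9, held neighbours with calls in different directions, with Zfp940 and Zfp790 called higher, Zfp566 and Zfp260 called lower and Zfp146 not called. Zfp260 was called lower on all 5 days, with changes from -1.30 to -1.0, and on none of them under all 4 scalings. Zfp790 was called higher at day 7 (1.67, adjusted p = 0.000537) and changed by -1.35 at day 30 without a call, and Zfp146 changed by -0.22 to 0.28. RefSeq promoter sequences were matched for 119 members, out of 135 whose names matched a RefSeq gene, 133 by symbol and 2 by accession. The 250 bases before the start of these 5 genes are printed because all 5 hold the same short element, ACTACANNTCC, in capitals, and their changes differed in direction.
Zfp790: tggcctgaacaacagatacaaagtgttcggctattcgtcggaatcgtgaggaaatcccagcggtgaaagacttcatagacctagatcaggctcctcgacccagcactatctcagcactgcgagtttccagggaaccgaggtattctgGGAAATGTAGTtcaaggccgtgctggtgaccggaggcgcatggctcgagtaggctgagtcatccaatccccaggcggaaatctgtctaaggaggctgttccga
Zfp940: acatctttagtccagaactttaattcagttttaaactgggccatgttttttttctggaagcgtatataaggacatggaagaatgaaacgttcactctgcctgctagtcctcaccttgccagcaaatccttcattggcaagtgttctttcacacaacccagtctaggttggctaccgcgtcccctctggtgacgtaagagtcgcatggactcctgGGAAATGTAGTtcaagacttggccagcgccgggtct
Zfp566: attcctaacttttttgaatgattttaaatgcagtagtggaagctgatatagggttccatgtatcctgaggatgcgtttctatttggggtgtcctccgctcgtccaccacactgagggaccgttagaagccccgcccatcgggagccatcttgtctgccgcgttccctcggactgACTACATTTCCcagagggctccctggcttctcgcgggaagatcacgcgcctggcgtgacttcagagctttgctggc
Zfp260: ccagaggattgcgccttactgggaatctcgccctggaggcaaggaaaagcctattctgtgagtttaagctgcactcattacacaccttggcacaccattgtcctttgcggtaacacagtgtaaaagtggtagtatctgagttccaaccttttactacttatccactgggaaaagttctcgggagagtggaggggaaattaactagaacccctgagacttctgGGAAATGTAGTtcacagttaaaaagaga
Zfp146: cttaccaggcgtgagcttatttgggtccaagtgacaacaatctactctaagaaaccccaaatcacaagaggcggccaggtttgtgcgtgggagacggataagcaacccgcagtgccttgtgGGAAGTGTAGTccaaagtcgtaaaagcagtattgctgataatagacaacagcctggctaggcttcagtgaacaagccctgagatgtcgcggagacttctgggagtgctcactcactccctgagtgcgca
On GRCm38.p6 these lie at chr7:29815822-29816071, plus strand (Zfp790), chr7:29853649-29853898, minus strand (Zfp940), chr7:30090511-30090760, minus strand (Zfp566), chr7:30094826-30095075, plus strand (Zfp260) and chr7:30169742-30169991, minus strand (Zfp146), each written in the direction of its gene. The element is part of the site known for the factor Zfp143. Counted from the annotated start, its last base was at -18 in Zfp260, -26 in Zfp940, -66 in Zfp566, -93 in Zfp790 and -119 in Zfp146.

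The element was found in 17 of the 119 member promoters (14.3%) and in 1.97% of 27025 promoters of all genes, counting 1 promoter per gene and both strands. Of the 17 members, 6 were called lower on at least 1 day, 4 higher and 7 on no day, where these counts over all 135 members were 63, 18 and 54. The shares were 6.67% of the 15 members lower at all 5 days, 26.7% of the 15 with a promoter among those called higher and 13.7% of the 51 called on no day. GC boxes (GGGCGG) stood in 47.1% of member promoters against 32.9%, CCAAT in 47.9% against 34.5%, CCGGAAG in 15.1% against 7.05% and TATAAA in 5.04% against 13%. These are descriptions of letters in a window, and duplicated members are not independent of one another.

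The corepressor genes through which KRAB zinc fingers act were measured alongside. Of 12 tested genes of this machinery, 5, 1, 2, 4 and 3 were called lower on the 5 days in order, and 0, 1, 2, 0 and 2 higher, with arrays scaled to their medians. Of all genes tested, 19.9%, 12.3%, 15.1%, 22.3% and 17.5% were called lower and 1.39%, 2.06%, 3.4%, 4.88% and 18.6% higher. Trim28, the protein that the KRAB domain binds, changed by -0.86 ± 0.11, -0.89 ± 0.16, -0.68 ± 0.19, -0.97 ± 0.15 and -0.77 ± 0.17 (adjusted p 8.4e-05 to 0.00686), under 2-fold on every day. Mphosph8, a subunit of the HUSH silencing complex, was called lower on all 5 days, by 1.43 to 2.02. Hdac1, a histone deacetylase, was called lower at days 4, 9, 25 and 30 by 1.19 to 1.49. Uhrf1, which recognises hemimethylated DNA, was called higher at days 7, 9 and 30, by 1.24, 1.96 and 1.12. Setdb1 was detected on 28 arrays and was not tested.

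C2H2 factors of blood with other names were measured too. Of 25 tested, 11, 7, 8, 10 and 11 were called lower and 0, 1, 1, 0 and 3 higher with the same scaling, with day medians of -0.89 to -0.31. Of all genes tested, 19.9%, 12.3%, 15.1%, 22.3% and 17.5% were called lower and 1.39%, 2.06%, 3.4%, 4.88% and 18.6% higher. The largest mean changes were those of Bcl11a, a factor of B cell development and a repressor of fetal globin (-2.12 to -1.21), Bcl6, a transcriptional repressor that acts in germinal center B cells (-2.07 to -1.14), and Sp1, which binds GC boxes (-2.14 to -1.02), and each was called lower on all 5 days. Of the relatives with fingers of the other type, Zfp36l1 was called lower on all 5 days by 1.32 to 1.77, and Zfp36l2 on none. The calls of these genes and of the corepressor genes were made with the array median alone. Whether they hold under the other scalings was not tested.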

How the data were processed

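Expression was measured in the whole blood of 56 mice on one-color Agilent arrays, with 28 control and 28 90Sr mice in 10 groups set by the labels. What the authors deposited is a scanner file per array, whose processed signal is a linear intensity after background correction and without scaling between arrays, with flags for every spot, and a table of their own processed log2 values, used as an alternative. The file headers name Feature Extraction 11.5.1.1 and the submitters' processing notes name Agilent Feature Extraction 10.7. Signals were log2 transformed, spots of a probe averaged, arrays centered on the median of 43020 non-control spots, and the brightest probe taken for each gene. Each day was fitted with limma 3.58.1 in R 4.3.3, control against 90Sr, with Benjamini-Hochberg adjustment over 12544 genes, after the script was tested on simulated data. The study's random-variance test was not run; limma, which also shares variance between genes, stood in for it.

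The members, gene lists and rules for named genes were chosen with earlier results of these data known. Named genes were the 8 detected members of a list with described roles; of the members lower at all 5 days, the 8 whose smallest change was largest; for each day and direction the 2 called members of largest change among those with no overlap between groups; the 3 of smallest p for a difference between days; and, from the KRAB and other C2H2 lists, the 3 of largest mean change with Trim28. Genes of a probe pair, promoter element or chromosomal run were named for that, after their values were seen. The alternatives were other scalings, background correction, filters, probe summaries, the authors' values, blocks for replicate number and slide, a pooled fit, another threshold and leaving out each array. Spots marked non-uniform entered the values, and leaving them out was an alternative added after the Zfp318 reading was seen. Coordinates are those of the array files (mm9) or of RefSeq promoters (GRCm38.p6). The number of arrays limits the precision, and each array is labelled as 1 mouse. Same-numbered control and 90Sr mice deviated together from their group means at day 4 (r = 0.43, 0.12, 0.12 and 0.15), with no source in the labels for a pairing, and not for every pair on the other days; the fit without a replicate block was used throughout, and with the block 43 members were called lower and 3 higher at day 4.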

Additional observations from a re-analysis of the deposited data

Results flagged for a closer look

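Of 230 groups of 4 or 6 mice examined over the 23 named members, 13 held a mouse whose gap to its nearest neighbour was large for the range of its group, and chance gives about 1 in 20. Zfp318 read 7.19 in replicate 6 of the day 30 90Sr mice (nearest 2.41) on a spot marked non-uniform. On day 30, control replicate 4 stood lowest for Zfp263 at 3.3 (nearest 4.03), Zfp688 at 2.3 (3.05), Zfp64 at 0.991 (1.98) and Zfp513 at 3.21 (4.03), and without this array 41 members were called lower and 15 higher. Replicate 1 of the day 30 90Sr mice read 3.49 for Zfp57 (4.43), 5.83 for Zfp622 (5.47) and 2.01 for Zfp764 (1.5), and replicate 6 read 2.48 for Zfp566 (0.765). At day 25 the 90Sr replicate 6 read 2.3 for Zfp281 (3.05), and control replicate 6 read 6.54 for Zfp622 (6.85) and 1.86 for Zfp112 (0.488). At day 7 the 90Sr replicate 6 read 2.64 for Zfp513 (3.37).

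For 6 of the 23 named members limma's F test found a 90Sr effect that varied with the day, with adjusted p = 0.000353 for Zfp940, 0.00049 for Zfp57, 0.000982 for Zfp189, 0.00517 for Zfp740, 0.01 for Zfp703 and 0.0494 for Zfp112. Zfp940, Zfp57 and Zfp189 had been named for this p and the others for a change on single days, so the count is partly set by the choice, and 29% of all genes tested had such an effect. Their largest changes were at day 30, and at day 9 they lay between -0.53 and 0.22.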

How the results depend on the processing

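Days are given in the order 4, 7, 9, 25 and 30. With the 75th percentile 12, 2, 13, 14 and 23 members were called lower, 15, 12, 4 and 25 higher at days 4 to 25, and 0 lower at all 5 days. With the median of spots detected on all arrays these were 17, 3, 18 and 16 lower and 11, 11, 2 and 21 higher at days 4 to 25, and 0 at all 5. With quantile normalization they were 15, 3, 17 and 17 lower, 7, 4, 1 and 16 higher, and 1 at all 5, with the members' median relative to all tested genes at -0.26, -0.21, -0.23, -0.25 and -0.41. With normexp 0 were lower on each day and at all 5, 0 were higher at days 4, 7 and 25 and 3 at day 30, the relative median was 0.24, -0.046, -0.14, -0.19 and -0.30, 1 member differed in effect between days and 15 between control days. Under normexp the day 4 changes of Zfp740 and Zfp940 were -0.061 and -0.29, and 72 of 115 named values lost their call or threshold. Of all genes tested, 2.82% to 12.7% were called lower on a day with the 75th percentile and 9.78% to 24.3% higher. With the median of spots detected on all arrays these shares were 3.5% to 16.4% and 7.99% to 18.9%. With quantile normalization they were 3.6% to 15.9% and 5.13% to 16.2%, and under normexp 0% to 0.678% and 0% to 5.43%. The cause of the lost calls was not tested.

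The relative median was -0.49, -0.38 and -0.52 at days 7, 9 and 25 with the methods' filter on dim probes, -0.92, -0.76, -0.81, -1.06 and -0.995 with no filter, and -0.47 at day 30 with the mean of a gene's probes. With the methods' filter on variation, which left 98 members, it was -0.43 and -0.54 at days 9 and 25, and 22 members differed in effect and 54 between control days. With the authors' values, on 112 members, it was -0.83, -0.75, -0.63, -1.06 and -0.77, with 4 higher at day 25, 62 lower and 7 higher at day 30, and 47 that differed between control days. With slide as a fixed block 0 were higher at days 7, 25 and 30, 15, 1 and 4 lower at days 9, 25 and 30, the relative median was -0.38 and -0.13 at days 9 and 25, and 0 differed in effect; as a random block 6 differed in effect and 48 between control days. Of all genes tested, the fixed block called 5.63%, 0.423% and 1.85% lower at days 9, 25 and 30. Lower at all 5 days has no value under either block, since no slide of day 4 held both groups. In 1 fit of all 10 groups 1 member was higher at day 4. With no minimum fold and an adjusted p below 0.05, 71, 71, 64, 77 and 67 were lower, 21, 29, 9, 27 and 40 higher, and 51 lower at all 5 days.

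On days 7, 9, 25 and 30 some same-numbered pairs did not correlate over 0.1, which cannot show whether mice there shared more than a number. Over all days 13 of 28 pairs were over 0.1 (-0.45 to 0.47) and 6 correlated best with their own number. With the replicate block 43, 26, 38, 48 and 39 members were lower and 3, 1, 0, 1 and 18 higher, with 16 at all 5 days. Without non-uniform spots, an alternative chosen after seeing the data, the counts lower were 42, 26, 37, 48 and 38.

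Leaving out 1 array at a time gave 33 to 45, 14 to 32, 34 to 43, 43 to 55 and 32 to 41 members lower, 1 to 3, 1 to 2, 0 to 1, 0 to 3 and 11 to 23 higher, 7 to 17 lower at all 5 days, 30 to 46 that differed in effect and 75 to 89 between control days. The relative median was -0.52 to -0.39, -0.42 to -0.31, -0.36 to -0.26, -0.43 to -0.32 and -0.63 to -0.48. Without replicate 6 of the day 7 90Sr mice 14 were lower at day 7 and 7 at all 5 days, and without replicate 2 of the day 30 controls 11 were higher at day 30. Dim probes limit the changes of the 52 members that were not detected on all arrays.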
